A study of Capra hircus with 4 samples.

Results

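Steroid synthesis in the goat ovary was followed through 5 genes that act along 1 pathway, STAR, CYP11A1, CYP17A1, CYP19A1 and HSD17B1, out of 28944 genes in the count matrices. They were chosen by name for their place in the pathway and not for their values. The annotation used by the authors lists CYP11A1 as LOC102173131 and CYP17A1 as LOC102182663, and both were matched through the synonyms in the RefSeq gene table. Over all nuclei deposited, 145467 molecules (UMIs) were assigned to CYP19A1, 9830 to CYP11A1, 5985 to HSD17B1, 5354 to STAR and 377 to CYP17A1.

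STAR is the carrier that brings cholesterol to the inner mitochondrial membrane, where CYP11A1 cleaves its side chain to give pregnenolone. In the follicle, theca cells use CYP17A1 to turn progestins into androgens, and granulosa cells (GCs) use CYP19A1, aromatase, to turn androgens into estrogens, with HSD17B1 reducing estrone to the more active estradiol. Mural GCs line the follicle wall, and cumulus GCs surround the oocyte.

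The libraries came from the ovaries of 2 Nubian goats with a litter size of 3 and 2 Du'an goats with a litter size of 1, all about 3 years old and all synchronized with a vaginal device that held 300 mg of progesterone for 17 days. Breed and litter size therefore cannot be told apart, and 1 library per goat makes the goat the replicate. RNA was counted in nuclei, together with any free RNA caught with them, so values do not describe whole cells. After filtering, 44734 of 48332 nuclei were kept, between 8723 and 15848 per goat, with 29800057 to 54540864 UMIs per goat and medians of 1755 to 3292 UMIs per nucleus.

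Nuclei were clustered without the 5 genes, and 14 classes were named "-like" from marker genes. Unnamed clusters of 2786, 2555 and 2433 nuclei and an unnamed GC subcluster of 431 stood outside these classes and their tests. The first of these made up 25.25% of the kept nuclei of Nubian goat 2. It held 18.2% of that goat's CYP11A1 UMIs and 13.3% of its STAR UMIs. The next made up 22.8% of the kept nuclei of Du'an goat 1. The makeup of the libraries was uneven: mural GC-like nuclei numbered 1457, 4763 and 425 in Du'an goat 2, Nubian goat 1 and Nubian goat 2 but only 6 in Du'an goat 1, which was left out of that class, and 54 to 131 barcodes were shared between any pair of libraries. The theca-like class was small, with 56, 90, 79 and 141 nuclei in Du'an goats 1 and 2 and Nubian goats 1 and 2 (the order kept below), or 366 in all. Its 8 theca markers summed to 1875 to 3421 counts per 1000000 UMIs (CPM) per goat, but COLEC11 had no UMI in any goat, the theca hormone INSL3 reached at most 19.2 CPM and had no UMI in Du'an goat 1, and the 7 stromal markers summed to 4390 to 6794 CPM. The sum of the theca markers alone did not set the class apart from mural GC-like nuclei, in which it was 3105, 1540 and 1785 CPM. Of these sums, LHCGR, the luteinizing hormone receptor, which stands in both lists, made up 3045, 1473 and 1760 CPM. Other theca markers did differ. ALDH1A1 held 258, 481, 284 and 304 CPM in theca-like against 2.35, 2.15 and 5.16 CPM in mural GC-like nuclei. PTCH1 held 1216, 268, 57.7 and 301 against 33.3, 34.6 and 14.5 CPM. COLEC11 was not higher in theca-like nuclei. The 6 mural GC markers summed to 816, 4457, 5613 and 2032 CPM in theca-like nuclei. Progenitor GC-like nuclei were named from progenitor markers, and their 11 GC markers summed to 1973, 1413, 2348 and 2228 CPM. These sums were 5532 to 9722 CPM in mural GC-like and 938 to 1828 CPM in theca-like nuclei, so the GC identity of the progenitor class is uncertain. The 5 cumulus markers summed to 1146 to 1480 CPM in cumulus and 1217 to 1518 CPM in cycling GC-like nuclei. The 9 cycling markers summed to 68.9 to 87.6 and 2742 to 4264 CPM there. T or natural killer (T/NK)-like nuclei, outside the steroid-making lineages, served as the background for free RNA. It was a low background, since by mean level this class ranked only 10 of the 14 classes for CYP19A1 and 12 for CYP11A1. Fewer cells of a class and less RNA per nucleus cannot be told apart in sums over a whole library.

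Each gene had its own distribution over the classes, as the plot of levels by class shows. The level of CYP17A1 was highest in theca-like nuclei, that of CYP11A1 in theca-like, mural and progenitor GC-like nuclei, that of CYP19A1 in mural GC-like nuclei, and that of HSD17B1 in cumulus, cycling and mural GC-like nuclei. STAR departed from the others: its highest level was in macrophage-like nuclei in all 4 goats. Levels are given in CPM of the UMIs summed over all nuclei of a class in a goat, and they are compared between classes for 1 gene at a time, since counts were not divided by gene length.

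**Figure D1:**
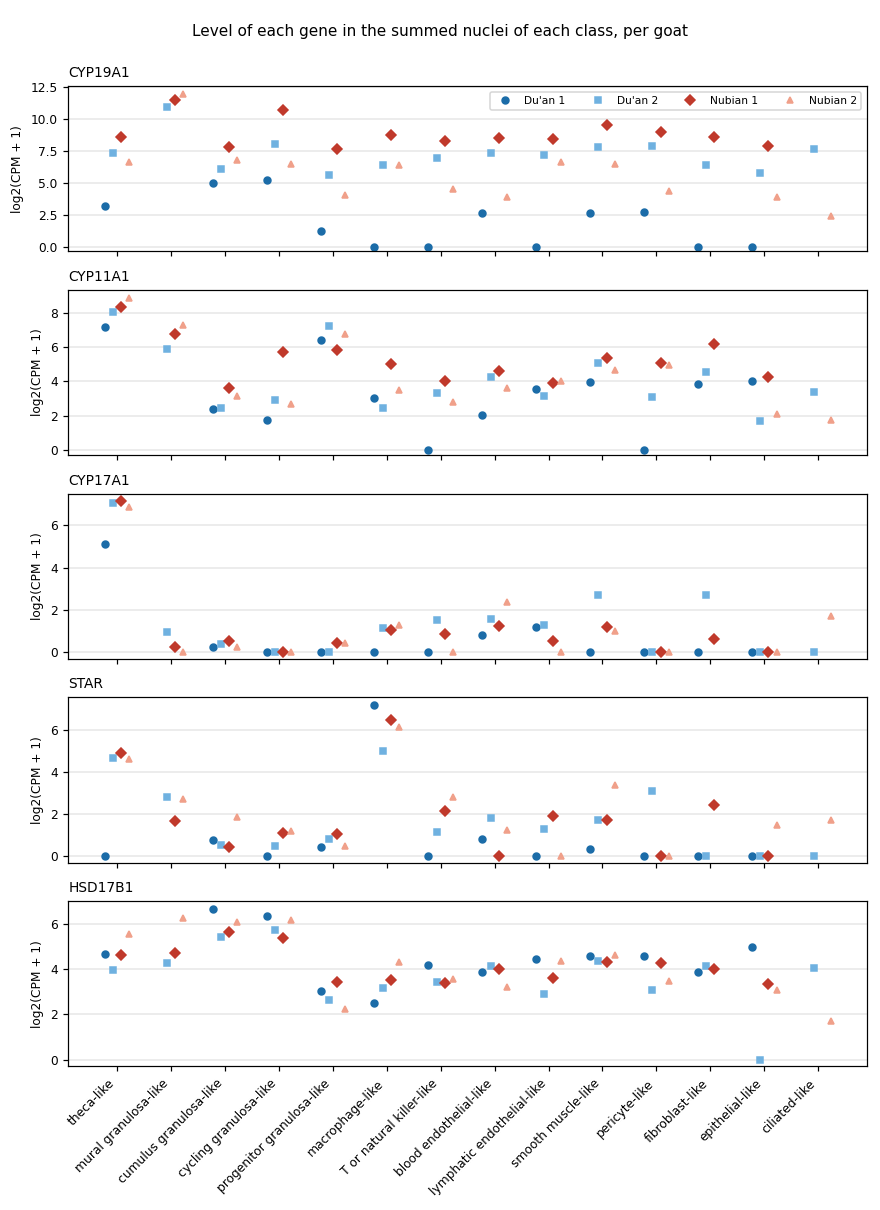
Level of each gene, as log2(CPM + 1) of the summed nuclei, in 14 classes, with 1 symbol per goat and sums of under 20 nuclei left out. CYP17A1 stands above all other classes in theca-like nuclei in all 4 goats, and STAR in macrophage-like nuclei. CYP19A1 is highest in mural GC-like nuclei, at 2005 to 4035 CPM.

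STAR, the cholesterol carrier at the head of the pathway, had its highest level in macrophage-like nuclei. Of the 648 STAR UMIs in kept nuclei, 315 were in the 1598 macrophage-like nuclei and 23 in the 366 theca-like nuclei. The macrophage-like sums held 143, 30.9, 87.8 and 69.4 CPM, and T/NK-like sums held 0 to 6.01 CPM. Every macrophage-like value lay above every sum of at least 20 nuclei of the other 13 classes, the nearest being the theca-like 28.9 CPM of Nubian goat 1. By goat, 84.7%, 42.2%, 44.9% and 45.02% of the STAR UMIs came from macrophage-like nuclei. The share of macrophage-like nuclei with at least 1 STAR UMI was 19.9%, 7.31%, 9.69% and 10.3% (exact 95% intervals 14.3 to 26.6, 5.12 to 10.1, 7.13 to 12.8 and 7.82 to 13.3), against 0% to 1.85% of T/NK-like nuclei, whose median depth was 2181 to 2731 UMIs where that of macrophage-like nuclei was 1029 to 4588. With each nucleus thinned to 1000 UMIs the macrophage-like shares were 10.99%, 2.55%, 5.47% and 4.63%. Of the 16 nuclei with 5 or more STAR UMIs, 14 were macrophage-like and 2 mural GC-like.

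In edgeR's quasi-likelihood test on the sums, blocked by goat, with p adjusted by Benjamini-Hochberg over 14886 genes, STAR was higher in macrophage-like nuclei than in the mean of the other classes by 5.35 on the log2 scale (SE 0.33, adjusted p = 5.95e-19), in a contrast in which 30.4% of all genes tested were called higher. The 165 macrophage-like nuclei with a STAR UMI held all 7 macrophage markers, at a summed 3296 CPM against 4027 CPM in the 1433 without one. Their 8 theca markers summed to 301 CPM against 199 CPM, their 6 mural GC markers to 473 against 940 CPM, and they held 4 CYP11A1 and 0 CYP17A1 UMIs. Macrophage-like nuclei fell into 2 clusters, and STAR was present in both: 39.7, 26.5, 65.7 and 88.0 CPM in the larger and 492, 57.9, 189 and 54.8 CPM in the smaller, shallower one. The order of the 2 clusters was thus the reverse in Nubian goat 2 of that in the other 3 goats.

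In theca-like nuclei STAR was counted at 0, 10, 6 and 7 UMIs, or 0, 24.5, 28.9 and 23.4 CPM, where 0 UMIs in Du'an goat 1 allow up to 25.0 CPM. In the 3 goats with a UMI the level was 6.62, 8.76 and 4.17 times that of all other kept nuclei together. The fit placed theca-like nuclei above the mean of the other classes by 3.01 (SE 0.63, adjusted p = 0.000366, 8.83% of genes called higher). Mural GC-like nuclei held 5.93, 2.15 and 5.63 CPM in the 3 goats with that class, at most 6 UMIs per nucleus. Their difference from the other classes, 1.12 (SE 0.45, adjusted p = 0.0473), lost its call under 10 of 13 alternatives, among them DESeq2 (0.79, adjusted p = 0.322) and leaving out Du'an goat 1 (1.03, adjusted p = 0.0502), Du'an goat 2 (0.81, adjusted p = 0.488) or Nubian goat 2 (1.82, adjusted p = 0.0735). Among the 4 GC states alone, mural GC-like nuclei were higher in STAR by 2.48 (SE 0.49, adjusted p = 0.00404, with 10.2% of 12907 genes called higher), and without Du'an goat 2 this was 1.85 (adjusted p = 0.0971). The theca-like minus mural GC-like difference in STAR was 1.75 (SE 0.67, adjusted p = 0.0587), and without Du'an goat 1 it was 1.91 (adjusted p = 0.0282). Cumulus, cycling and progenitor GC-like sums held at most 14 STAR UMIs each.

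The filters on nuclei bore on STAR more than on any other of the 5 genes. The study's limits on UMIs and genes per nucleus, the mean plus 2 standard deviations in each library, fell at 15042, 18471, 13623 and 22930 UMIs and left out 2337 nuclei. Those nuclei held 4660, or 87.8%, of the 5308 STAR UMIs found when they were kept, 67.9%, 71.3%, 64.1% and 94.7% by goat, and Nubian goat 2 alone contributed 3732. By contrast 37.1% of CYP17A1 UMIs and 30.8% of CYP11A1 UMIs lay there.

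When these nuclei were kept and all nuclei clustered again, a choice made after seeing the data, a macrophage-like cluster of 18, 93, 35 and 206 nuclei with a median of 27180 UMIs appeared, and 4539 of the 5308 STAR UMIs were in it. STAR stood at 218, 175, 375 and 394 CPM there, 50.6% of its nuclei had a STAR UMI and 1 nucleus had 249. All 7 macrophage markers were present in every goat, summing to 11828, 11566, 12739 and 4056 CPM. In the other macrophage-like clusters they summed to 2701, 2676, 2231 and 4717 CPM. Nubian goat 2, which held 3675 of the 4539 STAR UMIs, was thus the only goat with lower sums in the deep cluster. The 8 theca markers summed to 101.1 to 186 CPM with GLI1 and INSL3 at 0 in every goat, the 11 GC markers to 161 to 327 CPM, and 3BHSD, the 3 beta-hydroxysteroid dehydrogenase that follows CYP11A1, was at 0, 0, 0 and 0.429 CPM. FTH1, the heavy chain of the iron store ferritin, took 45608 to 75283 CPM, against 2162 to 16763 CPM in the other macrophage-like clusters. Those clusters had a median of 1425 UMIs. Whether the deep nuclei hold the RNA of more than 1 cell was not tested. Theca-like nuclei in the same clustering had 31.9, 31.3, 31.5 and 25.5 CPM of STAR, and mural GC-like nuclei 4.98, 1.86 and 5.97 CPM. With the deep nuclei kept, the fitted macrophage-like difference was 7.27 (SE 0.27, adjusted p = 9.4e-26), the theca-like 3.53 (SE 0.64, adjusted p = 6.11e-05), and the theca-like minus mural GC-like difference passed the threshold (2.56, adjusted p = 0.00408).

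**Figure D2:**
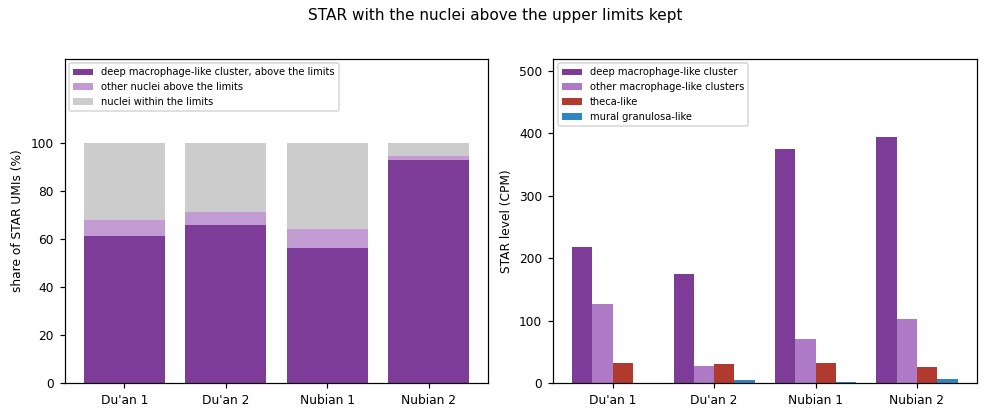
Left: share of each goat's STAR UMIs in the deep macrophage-like cluster above the limits, in other nuclei above the limits and in nuclei within them. Right: STAR level in CPM in 4 sets of nuclei when nuclei above the limits are kept, a class being drawn from 10 nuclei on; the deep cluster is at 175 to 394 CPM in every goat and theca-like nuclei at 25.5 to 31.9 CPM.

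CYP11A1, the side-chain cleavage enzyme, was highest in theca-like nuclei and was also present in mural and progenitor GC-like nuclei. The theca-like sums held 142, 263, 322 and 471 CPM. Mural GC-like sums held 56.9, 107 and 158 CPM in Du'an goat 2 and Nubian goats 1 and 2, and progenitor GC-like sums 85.1, 146, 55.9 and 106 CPM. Cumulus GC-like sums, at 4.13, 4.46, 11.4 and 7.99 CPM, lay in the range of the T/NK-like sums of 0, 8.86, 15.3 and 6.01 CPM. Thinned to 1000 UMIs, 12.5% to 31.4% of theca-like nuclei had a CYP11A1 UMI, 4.96% to 14.4% of mural and 5.7% to 10.5% of progenitor GC-like nuclei, and 0% to 2.19% of T/NK-like nuclei.

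The fitted difference from the other classes was 3.94 (SE 0.31, adjusted p = 2.72e-13) in theca-like, 2.62 (SE 0.31, adjusted p = 6.44e-09) in mural GC-like and 2.88 (SE 0.29, adjusted p = 1.23e-10) in progenitor GC-like nuclei, contrasts in which 8.83%, 19.9% and 18.1% of genes were called higher. All 3 calls held under every alternative tried. In cumulus GC-like nuclei CYP11A1 was lower by 1.62 (SE 0.40, adjusted p = 0.00117; 14.1% of genes lower), and without Du'an goat 2 the difference was -1.42 with an adjusted p of 0.072. Theca-like nuclei exceeded mural GC-like nuclei in CYP11A1 in 3 of 3 goats, but the fitted difference of 1.22 (SE 0.47) did not pass (adjusted p = 0.067, 7.12% of genes higher). It did pass with DESeq2 (1.54, adjusted p = 0.0398), with relative log expression factors (1.55, adjusted p = 0.0187) and without Nubian goat 1 (1.23, adjusted p = 0.0318). The median of all genes in this contrast was -0.16 with TMM and 0.18 with relative log expression factors.

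By number, 52.1% to 79.4% of CYP11A1 UMIs by goat came from the GC-like states, counting the progenitor class, whose GC identity is uncertain. The few theca-like nuclei gave 2.62%, 8.71%, 1.89% and 10.97% of the CYP11A1 UMIs. In Du'an goat 1, with almost no mural GC-like nuclei, 75.4% of CYP11A1 UMIs came from progenitor GC-like nuclei, whereas mural GC-like nuclei gave 45.4%, 63.2% and 26.1% in the other goats. The plot of UMI shares shows these sources side by side.

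**Figure D3:**
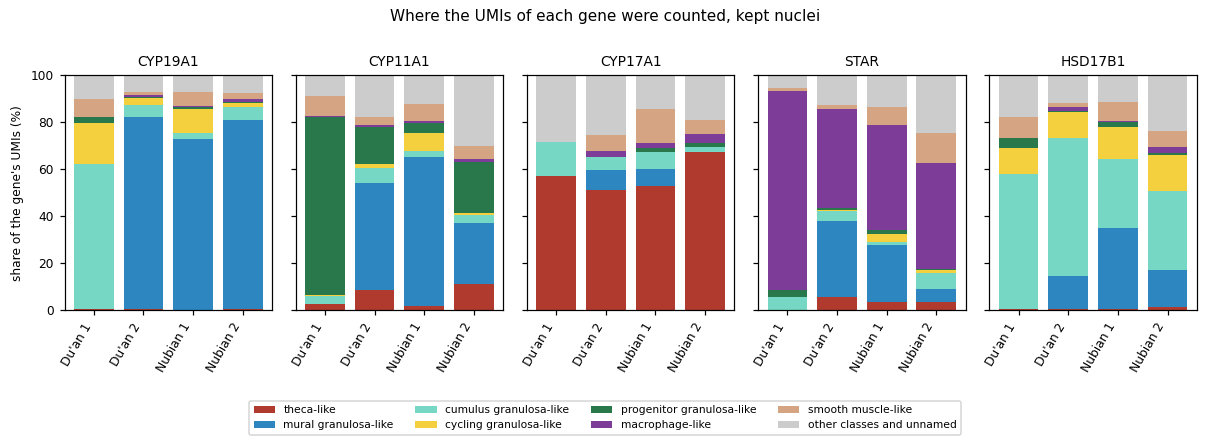
Share of each gene's UMIs, in percent of those in kept nuclei of a goat, by class. Theca-like nuclei hold 50.9% to 67.3% of the CYP17A1 UMIs but 1.89% to 10.97% of the CYP11A1 UMIs, and macrophage-like nuclei hold 42.2% to 84.7% of the STAR UMIs.

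CYP17A1, the hydroxylase and lyase of androgen synthesis, had its highest level in theca-like nuclei, which gave 50.9% to 67.3% of its UMIs by goat. Only 220 UMIs were found in kept nuclei, 122 of them in the 366 theca-like nuclei (4, 54, 29 and 35 by goat). These correspond to 33.3, 132, 139 and 117 CPM, whereas all other kept nuclei together held 3, 52, 26 and 17 UMIs, or 0.101, 1.13, 0.479 and 0.468 CPM. The ratio of the levels was 117, 292 and 250 in Du'an goat 2, Nubian goat 1 and Nubian goat 2, and none is given for Du'an goat 1, where it would rest on 4 and 3 UMIs. Every theca-like value lay above every sum of at least 20 nuclei of the other named classes, the highest of which was 5.61 CPM from 1 UMI in fibroblast-like nuclei. Cycling GC-like, epithelial-like and pericyte-like nuclei had no CYP17A1 UMI in any goat.

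At least 1 CYP17A1 UMI was found in 7.14%, 33.3%, 22.8% and 17.7% of theca-like nuclei (exact 95% intervals 1.98 to 17.3, 23.7 to 44.0, 14.1 to 33.6 and 11.8 to 25.1), against 0%, 0.431%, 0.237% and 0% of T/NK-like nuclei, at median depths of 1566 to 3810 and 2181 to 2731 UMIs. No theca-like nucleus had more than 6. The fit gave a theca-like difference of 7.77 (SE 0.34, adjusted p = 4.07e-20) from the other classes and of 7.71 (SE 0.61, adjusted p = 5.12e-12) from mural GC-like nuclei; with 3 classes at 0 the size of the first depends on the prior count of the fit. GC states held too few CYP17A1 UMIs (27 in all) to be tested among themselves.

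Within the theca-like class the enzymes were often found in the same nuclei. CYP11A1 was counted in 52 of the 77 nuclei with a CYP17A1 UMI (67.5%) and in 111 of the 289 without one (38.4%). The direction was the same in every goat, at 25% against 13.5%, 73.3% against 55%, 61.1% against 37.7% and 72% against 41.4%. In Du'an goat 1 this rested on 1 of 4 nuclei against 7 of 52. CYP19A1 was likewise counted in 35.1% of the nuclei with a CYP17A1 UMI and in 18.3% of those without one, with goats pooled. These pooled shares also carry the number of nuclei from each goat. By goat they were 40% against 31.7% in Du'an goat 2 and 72.2% against 44.3% in Nubian goat 1. In Nubian goat 2 they were 8% against 5.17%, from 2 of 25 and 6 of 116 nuclei. Only Du'an goat 1 went the other way for CYP19A1, at 0% against 1.92%. The nuclei with CYP17A1 were also deeper, with a median of 3300 against 1853 UMIs, and the part of depth in these differences was not tested.

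CYP19A1, aromatase, was far higher in mural GC-like nuclei than in any other class. Their sums held 2005, 2829 and 4035 CPM, and 94.2%, 87.0% and 92.7% of their nuclei had a CYP19A1 UMI. Up to 346 UMIs were counted in 1 nucleus, and 69.2% of mural GC-like nuclei had 3 or more. The next class, cycling GC-like nuclei, held 38.3, 266, 1641 and 88.1 CPM, below the mural value in each of the 3 goats with both. The fit gave 5.21 (SE 0.37, adjusted p = 1.73e-14) against the other classes and 4.73 (SE 0.63, adjusted p = 0.000714) against the other GC states.

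Below mural GC-like nuclei the order of the classes was not clear. Cycling GC-like nuclei were above smooth muscle-like nuclei, the next class, in 3 of 4 goats, and their ranges overlapped. Cumulus GC-like nuclei lay above the T/NK-like background in Du'an goat 1 and Nubian goat 2 and below it in Du'an goat 2 and Nubian goat 1. By mean level, smooth muscle-like (269 CPM) and pericyte-like nuclei (193 CPM) stood above theca-like nuclei (162 CPM), with ranges that overlapped, and T/NK-like nuclei stood lower (115 CPM). Theca-like nuclei lay above T/NK-like nuclei in Du'an goat 2 and both Nubian goats, by a margin that was not tested. In Du'an goat 1 their level rested on 1 UMI, and 0 UMIs in T/NK-like nuclei allow up to 8.67 CPM, so no order is given. T/NK-like sums held 0, 127, 310 and 23.0 CPM of CYP19A1, following the levels of the whole libraries of 9.53, 518, 1494 and 291 CPM. Theca-like sums held 8.33, 160, 380 and 100 CPM, and cumulus GC-like sums 31.5, 69.2, 225 and 112 CPM. With nuclei thinned, the theca-like shares were 2.08%, 17.2%, 27.1% and 5.65%, the cumulus GC-like shares 2.65%, 7.66%, 22.2% and 5.25%, and the T/NK-like shares 0%, 13.1%, 23.6% and 3.05%. Cumulus GC-like nuclei thus lay below T/NK-like nuclei in the 2 goats with the highest whole-library levels and above them in the other 2. In Du'an goat 1 cumulus GC-like nuclei held 175 of the library's 284 CYP19A1 UMIs, and T/NK-like nuclei held 0. Neither theca-like nor cumulus GC-like nuclei differed from the mean of the others in the fit (theca-like -0.26, SE 0.55, adjusted p = 0.897, and cumulus GC-like 0.48, SE 0.47, adjusted p = 0.499). That mean includes mural GC-like nuclei, so the fit did not compare either class with T/NK-like nuclei alone. The mural GC marker sums of theca-like nuclei given above followed the same order of goats as their CYP19A1, and the part of mural-type RNA in it was not tested. Mean levels of the 13 classes after mural GC-like nuclei ran from 508 to 67.0 CPM, and every neighbouring pair in that order overlapped between goats.

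Theca-like nuclei were lower in CYP19A1 than mural GC-like nuclei by 5.08 (SE 0.77, adjusted p = 3.26e-06; 11.8% of genes lower). Relative to CYP19A1, CYP11A1 had 2.84, 3.79 and 3.91 UMIs per 100 in mural GC-like nuclei, not divided by gene length. No such ratio is given for theca-like and progenitor GC-like nuclei, which held as few as 1 and 8 CYP19A1 UMIs in Du'an goat 1.

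In cycling GC-like nuclei the CYP19A1 difference from the other classes, 1.48 (SE 0.41, adjusted p = 0.00314, with 22.2% of genes higher), rested on Nubian goat 1. Without that goat it was 1.13 (adjusted p = 0.111). In that goat 761 of the 863 cycling GC-like nuclei belonged to 1 cluster at 1824 CPM, and the 6 mural GC markers of the cycling class summed to 9441 CPM, where they summed to 774, 2100 and 578 CPM in Du'an goats 1 and 2 and Nubian goat 2. The part of mural-type nuclei in the cycling value was not tested. Progenitor GC-like nuclei were lower than the other classes by 1.79 (SE 0.53, adjusted p = 0.00821; 10.2% of genes lower), and by 1.56 (adjusted p = 0.103) without Du'an goat 2. Among the GC states they were lower by 3.59 (SE 0.72, adjusted p = 0.00225, with 18.8% of genes lower).

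Mural GC-like nuclei came from clusters that were nearly specific to 1 goat each, and CYP19A1 differed among them. The main cluster of Nubian goat 1 (4138 of its nuclei) stood at 3207 CPM, that of Du'an goat 2 (1440 nuclei) at 2012 CPM and that of Nubian goat 2 (396 nuclei) at 4193 CPM. A further mural cluster of Nubian goat 1 (615 nuclei) was lower, at 788 CPM of CYP19A1 and 58.0 CPM of CYP11A1 against 116 CPM in the main one, and held 8.59 CPM of HSD17B1 against 28.1 CPM. Cluster and goat cannot be told apart among the 3 main clusters, whereas the last comparison was made within 1 goat.

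HSD17B1, the estrone reductase, followed a different order among GCs from that of CYP19A1. Its level in cumulus GC-like nuclei was 102, 41.8, 49.9 and 66.9 CPM, and that in cycling GC-like nuclei 81.1, 52.6, 40.3 and 71.8 CPM. Mural GC-like nuclei held 18.2, 25.0 and 77.4 CPM, which was below both states in Du'an goat 2 and Nubian goat 1 and above both in Nubian goat 2. Progenitor GC-like nuclei held 7.12, 5.26, 9.74 and 3.79 CPM, no more than T/NK-like nuclei (17.3, 9.82, 9.38 and 11.02 CPM) in 3 of 4 goats. Whole libraries varied little, from 27.5 to 32.9 CPM.

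Against the other classes HSD17B1 was higher in cumulus GC-like (2.08, SE 0.19, adjusted p = 1.85e-12, 20.9% of genes higher), cycling GC-like (2.01, SE 0.20, adjusted p = 1.17e-11) and mural GC-like nuclei (1.49, SE 0.23, adjusted p = 1.02e-06), and lower in progenitor GC-like nuclei (-1.37, SE 0.29, adjusted p = 0.00025). These calls held under every alternative tried. In theca-like nuclei, at 25.0, 14.7, 24.0 and 46.8 CPM, it did not pass (0.43, SE 0.37, adjusted p = 0.516), and the theca-like minus mural difference of -0.99 (SE 0.41) had an adjusted p of 0.0913.

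Among the 4 GC states, HSD17B1 was higher in cumulus (1.24, SE 0.25, adjusted p = 0.00723; 9.92% of genes higher) and cycling GC-like nuclei (1.24, SE 0.26, adjusted p = 0.00524; 13.5% higher) and lower in progenitor GC-like nuclei by 3.02 (SE 0.36, adjusted p = 4.23e-05). The cumulus call was lost without Du'an goat 1 (1.09, adjusted p = 0.0523) or Du'an goat 2 (adjusted p = 0.0539), and the cycling call without Du'an goat 2 (1.03, adjusted p = 0.0587). One cumulus cluster, with AMH among its leading genes, held nearly the same level in every goat, 75.7, 66.9, 65.8 and 65.5 CPM. CYP11A1 followed another order, being higher in progenitor (2.45, SE 0.52, adjusted p = 0.00328; 20.8% of genes higher) and mural GC-like nuclei (2.15, SE 0.54, adjusted p = 0.0166) and lower in cumulus GC-like nuclei by 3.15 (SE 0.63, adjusted p = 0.007; 9.06% of genes lower). Without Du'an goat 2 these were 1.90, 2.40 and -3.10 with adjusted p of 0.066, 0.0901 and 0.0587, and without Nubian goat 2 the mural difference was 1.60 (adjusted p = 0.129).

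**Figure D4:**
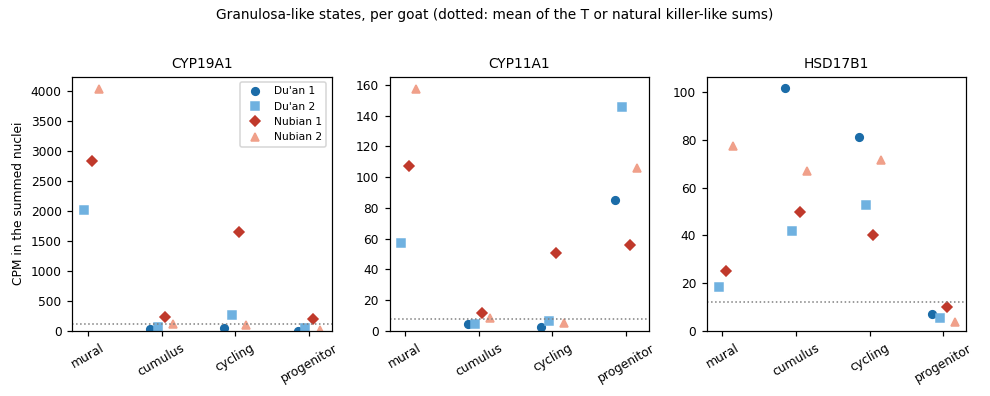
CYP19A1, CYP11A1 and HSD17B1 in CPM in the 4 GC-like states, with 1 symbol per goat (no mural value for Du'an goat 1) and a dotted line at the mean of the T/NK-like sums. CYP19A1 is highest in mural nuclei, CYP11A1 in mural and progenitor nuclei, and HSD17B1 lies below the line in progenitor nuclei in all 4 goats.

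**Figure D5:**
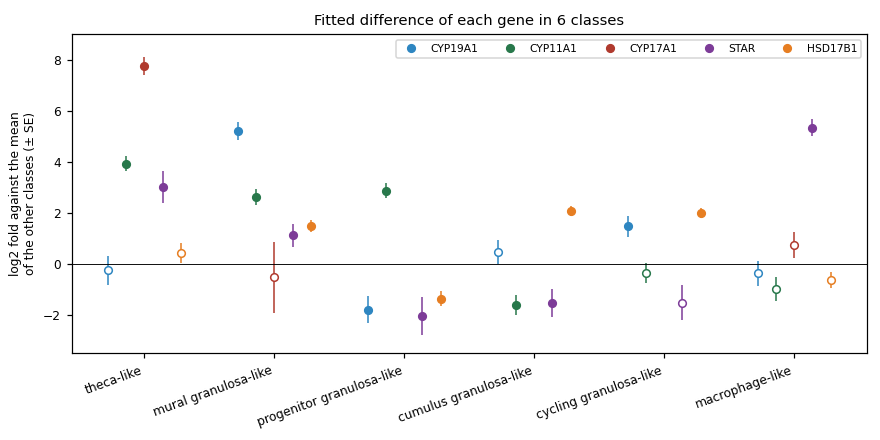
Fitted log2 difference of each gene, with its standard error, in 6 classes against the mean of the other classes. Filled symbols pass an adjusted p of 0.05 and open ones do not; CYP17A1 at 0 in cycling and undetermined in cumulus and progenitor GC-like nuclei is not drawn.

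The granulosa marker tables deposited with the series, which pool the 4 goats, list CYP19A1 and CYP11A1 and none of the other 3 genes. In the authors' Mural_GCs group CYP19A1 was given in 92.1% of nuclei and CYP11A1 in 30%. In their Antral group the values were 91.8% and 29.2%. Neither gene was listed for any other group of these tables, the Common_progenitor_GCs group included.

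Other genes of the pathway were taken from a list of 5 roles, 44 of which were in the matrices and 37 tested. In theca-like nuclei 7 were higher and 3 lower (background 8.83% and 7.95%), with a list median of -0.09 beside -0.14 over all genes. In mural GC-like nuclei 16 were higher and 4 lower (background 19.9% and 14.1%), with a median of 0.26 beside 0.04. In progenitor GC-like nuclei 10 were higher and 9 lower (background 18.1% and 10.2%). The counts of each class include LHCGR, NR5A2 and FSHR, which were also on the marker lists that named the classes.

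The 3 electron donors found in the matrices were higher in both theca-like and mural GC-like nuclei. POR, CYB5B and CYB5R3, listed for the same role, were not found there under these names. FDX1, the ferredoxin that serves mitochondrial enzymes such as CYP11A1, rose by 2.00 (SE 0.19) in theca-like and 1.11 (SE 0.19) in mural GC-like nuclei, its reductase FDXR by 2.28 (SE 0.29) and 2.47 (SE 0.22), and cytochrome b5, CYB5A, which serves CYP17A1 in the endoplasmic reticulum, by 1.52 (SE 0.23) and 0.86 (SE 0.20), with adjusted p of 0.000744 or less for all 6. In progenitor GC-like nuclei, whose CYP11A1 range overlapped that of mural ones, the same 3 genes were lower, by 0.86 for FDX1, 0.80 for FDXR and 0.75 for CYB5A (adjusted p = 0.0011, 0.033 and 0.00729). 3BHSD held 125, 90.8, 81.8 and 221 CPM in theca-like nuclei, 47.1, 14.3 and 46.9 CPM in mural and 28.3, 19.5, 36.1 and 32.6 CPM in progenitor GC-like nuclei. Pericyte-like nuclei held 23.1, 144, 53.1 and 20.2 CPM, from 4, 19, 20 and 2 UMIs. That was above theca-like nuclei in Du'an goat 2, and above mural GC-like nuclei in Du'an goat 2 and Nubian goat 1. 3BHSD was higher in theca-like than in mural GC-like nuclei by 1.49 (SE 0.40, adjusted p = 0.00463), but, unlike the 5 genes, it was not kept out of the clustering.

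Of the 9 genes of cholesterol delivery, SCARB1, the lipoprotein receptor that takes up cholesteryl esters, was higher in theca-like (1.24, SE 0.33, adjusted p = 0.00531) and mural GC-like nuclei (1.71, SE 0.29, adjusted p = 7.72e-06). TSPO, an outer mitochondrial membrane protein, was lower in mural GC-like nuclei by 2.02 (SE 0.45, adjusted p = 0.00043), as was 1 further gene of the role. Of the 14 dehydrogenases and reductases tested, none passed in theca-like nuclei, 3 were higher and 1 lower in mural GC-like nuclei, and 6 were higher and 2 lower in progenitor GC-like nuclei. In mural GC-like nuclei HSD17B14 (2.22, adjusted p = 0.00647) and HSD17B12 (0.81, adjusted p = 8.88e-05) were higher and SRD5A3 lower (-1.42, adjusted p = 0.00134), and HSD17B4 was higher by 0.53 (adjusted p = 0.0224). In progenitor GC-like nuclei SRD5A2, a steroid 5 alpha-reductase (5.75, adjusted p = 1.04e-18), HSD11B1, which reduces inactive to active glucocorticoid (2.94, adjusted p = 1.7e-06), and HSD17B13 (2.72, adjusted p = 0.000191) were higher. HSD17B4 and these 3 genes were named after their values were seen. Of steroid clearance STS, steroid sulfatase, was lower in mural GC-like nuclei (-1.72, SE 0.33, adjusted p = 3.74e-05).

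Among regulators, NR5A1, the steroidogenic factor, was higher in theca-like (3.20, SE 0.20, adjusted p = 2.17e-17) and mural GC-like nuclei (1.97, SE 0.20, adjusted p = 7.68e-11). GATA4 was higher in theca-like nuclei by 1.59 (adjusted p = 9.07e-07) and in mural GC-like nuclei by 2.08 (adjusted p = 8.5e-10), and GATA6 was higher in mural GC-like nuclei by 2.70 (adjusted p = 9.43e-14). LHCGR and NR5A2 were also used to name classes, and their differences are therefore not findings: LHCGR was higher in both classes (4.08 and 4.72), and NR5A2 was lower in theca-like (-1.15) and higher in mural GC-like nuclei (3.64). In all, 3 of the 9 regulators tested were higher and 3 lower in theca-like nuclei, and 8 were higher in mural GC-like nuclei. These counts include LHCGR, NR5A2 and FSHR, the last of which is also a GC marker. In theca-like nuclei LHCGR was among the higher and NR5A2 and FSHR among the lower. In mural GC-like nuclei each of them was among the higher.

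Genes whose level ran most closely with that of each enzyme over the 52 sums of goats and classes were ranked by Pearson's r of log2(CPM + 1) among 15000 genes, as a description, since sums share goats, depth and free RNA. CYP19A1 was closest to SYCP1 (0.92), C22H3orf67 (0.92), the inhibin subunits INHBA (0.91) and INHA (0.91), and LRRTM3 (0.87). CYP11A1 was closest to FAM169B (0.79), EDIL3 (0.73), RNF144A (0.73), 3BHSD (0.72) and PLPP3 (0.72), and CYP17A1 to LOC102173645 (0.79), FAM222A (0.78), ERP27 (0.75), FLRT1 (0.72) and ALPL (0.70). STAR was closest to ALOX5AP (0.79), LOC102169730 (0.78), the myeloid transcription factor SPI1 (0.77), RPA3 (0.77) and WDFY4 (0.76), and HSD17B1 to RIMKLA (0.76), TLL2 (0.76), SEPT4 (0.74), LOC108633768 (0.71) and follistatin, FST (0.71). Between the 5 genes themselves the highest r was 0.54, for CYP11A1 with CYP17A1; that of CYP19A1 with HSD17B1 was 0.22.

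Between breeds, no gene passed an adjusted p of 0.05 in the main edgeR fits of the classes compared. This was 0% of 4675 genes tested in theca-like nuclei, 0% of 12529 in cumulus, 0% of 10145 in cycling and 0% of 10623 in progenitor GC-like nuclei, 0% of 9772 in macrophage-like nuclei and 0% of 16793 over all kept nuclei, where 92, 346, 191, 282, 509 and 275 genes had an unadjusted p under 0.05. DESeq2 called 0, 26, 5, 16, 12 and 30 genes in the same comparisons. Mural GC-like nuclei could not be compared, with 1 Du'an goat in that class.

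CYP11A1 in theca-like nuclei was higher in both Nubian goats (322 and 471 CPM) than in both Du'an goats (142 and 263 CPM), a difference of 0.87 (SE 0.41) with an adjusted p of 0.999. Over all kept nuclei it was 65.0 and 35.0 CPM against 21.8 and 26.5 CPM (1.04, SE 0.40, adjusted p = 0.9999), a value that also carries the number of mural GC-like nuclei in each library. CYP17A1 in theca-like nuclei overlapped between breeds (139 and 117 against 33.3 and 132 CPM; 0.38, SE 0.57), as did STAR in macrophage-like nuclei (87.8 and 69.4 against 143 and 30.9 CPM; -0.14, SE 0.68) and HSD17B1 in cumulus GC-like nuclei (49.9 and 66.9 against 102 and 41.8 CPM; -0.31, SE 0.44). CYP19A1 over all kept nuclei ranged from 9.53 to 518 CPM in Du'an goats and from 291 to 1494 CPM in Nubian goats (1.80, SE 1.85), so that Du'an goat 2 lay above Nubian goat 2. In cumulus GC-like nuclei CYP19A1 and CYP11A1 were higher in both Nubian goats, by 1.67 (SE 0.50) and 1.12 (SE 0.30). Each had an adjusted p of 0.9999, and the levels lay within the range of the T/NK-like sums over all goats. With 2 goats against 2 these standard errors allow large differences to go undetected.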

How the data were processed

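Single-nucleus 3′ libraries of 4 ovaries, 1 per goat, were deposited as raw UMI counts per gene and nucleus, made by the authors with Cell Ranger (version 5.0.0 per the labels, 3.1.0 per the file headers). The fractions in the authors' marker tables, the share of nuclei with a UMI, pool the 4 goats and are printed as percent, and their shares in the other groups, fold changes and p-values were not used.

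Nuclei within 2 standard deviations of the library's mean UMIs and genes and with at most 20% mitochondrial UMIs were kept. Scrublet scores marked 151 doublets, all in 1 library, so doublets are in effect not removed. Nuclei were clustered on 2000 variable genes, without the 5 genes and the pathway list, with 30 components, 20 neighbours and Leiden resolution 0.8 (0.5 within GCs; Python 3.11.15, scanpy 1.11.5, leidenalg 0.10.2), and named from marker lists. Counts were summed per goat and class from 20 nuclei on and tested with edgeR 4.0.16 (R 4.3.3, TMM, quasi-likelihood, goat as block, Benjamini-Hochberg over all genes tested); breeds were compared as 2 goats against 2. DESeq2 1.42.0 was an alternative. Shares of nuclei named as thinned were taken after thinning to 1000 UMIs, which 34406 nuclei reached. All other shares were not thinned. Exact binomial intervals (95%) and limits from 0 UMIs (3 counts) cover counting error only. The tests were checked on simulated counts.

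Named genes were the 5 genes, the 3 pathway genes of each role with the largest fold among those past the threshold in theca-like or mural GC-like nuclei, any 3 beta-hydroxysteroid dehydrogenase, and the 5 most similar genes by correlation. One gene that this rule names is not reported here. The members, lists and tests were chosen with earlier results of these data known.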

Additional observations from a re-analysis of the deposited data

Results flagged for a closer look

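Nuclei above the upper limits on UMIs and genes were outside every main comparison. They entered where the STAR result names them and in the alternative with deep nuclei kept. All 5 genes were counted in them above the limit that a count of 0 allows. STAR had 4660 UMIs in these 2337 nuclei, CYP11A1 2993, CYP17A1 130, CYP19A1 28078 and HSD17B1 1040. Keeping these nuclei was chosen after seeing the data.

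The classes named here are those of the clustering with these nuclei kept, in which the epithelial-like class held 2927 nuclei against 551 in the main clustering. The CYP11A1 UMIs included 1054 in 164 epithelial-like nuclei above the limits, of which 49.4% had at least 1 and 1 nucleus had 95. Nuclei with 95, 61 and 51 CYP11A1 UMIs held 152, 172 and 85 UMIs of epithelial markers. Others with 53, 49, 44 and 41 held only 2, 3, 0 and 5, so the class name is uncertain for them. The CYP17A1 UMIs were concentrated in few nuclei. A fibroblast-like nucleus of Nubian goat 1 with 82294 UMIs held 63 of the 130, together with 109 CYP11A1, 15 STAR and 9 3BHSD UMIs, 304 UMIs of theca markers and 478 of fibroblast markers. Another 34 were in 10 theca-like nuclei, and 15 were in 1 blood endothelial-like nucleus of Nubian goat 2 with 32359 UMIs. Whether such nuclei hold the RNA of more than 1 cell was not tested.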

How the results depend on the processing

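Of 514 alternative values for 44 results, 452 kept their direction and their side of the threshold, and 22 results did so under every alternative run, among them 11 of 15 differences of a gene in a class. The difference of STAR in mural GC-like nuclei lost its call at Leiden resolution 0.4 (1.06) and 1.2 (1.28), with deep nuclei kept (0.76), with DESeq2 (0.79), with relative log expression factors (0.89), with no filter (1.14) and with sums of at least 50 nuclei (1.05), and ran from 0.81 to 1.97 with 1 goat left out. Theca-like minus mural GC-like differences gained a call for CYP11A1 at resolution 1.2 (1.70), with variable genes from all genes (1.35), DESeq2 (1.54) and relative log expression factors (1.55), running from 0.94 to 1.48 with 1 goat left out. For STAR they did at resolution 1.2 (1.94), without the top 10% of doublet scores (1.83), with variable genes from all genes (1.94), deep nuclei kept (2.56) and relative log expression factors (2.09), running from 1.24 to 2.03 with 1 goat left out. CYP11A1 in mural nuclei among GC states was 2.18 with no filter. With 1 goat left out, CYP19A1 ran from 1.13 to 1.98 in cycling and from -2.02 to -1.56 in progenitor nuclei, and CYP11A1 from -1.78 to -1.42 in cumulus nuclei. Among GC states, CYP11A1 then ran from 1.60 to 2.72 in mural, 1.90 to 3.19 in progenitor and -3.17 to -2.85 in cumulus nuclei, HSD17B1 from 1.09 to 1.37 in cumulus and 1.03 to 1.34 in cycling nuclei, and STAR from 1.85 to 3.19 in mural nuclei. The cause was not tested in any of these.

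Counts of genes called between breeds were 0 in the main edgeR fits. With no filter on low counts they were 7 in theca-like, 17 in cumulus, 4 in cycling and 134 in progenitor GC-like and 150 in macrophage-like nuclei. With DESeq2 they were 26 in cumulus, 5 in cycling, 16 in progenitor and 12 in macrophage-like nuclei and 30 over all kept nuclei. With 1 goat left out, the lone goat of its breed being assumed to vary like the others, they ran from 1 to 23 in theca-like, 0 to 3 in cumulus, 0 to 339 in cycling (339 without Nubian goat 2), 0 to 60 in progenitor and 0 to 2 in macrophage-like nuclei. Goats with the same replicate number share only the number (r = 0.046 between their deviations over 16793 genes). With the replicate block STAR in macrophage-like nuclei turned from -0.14 to 0.15 and CYP17A1 over all nuclei from -0.10 to 0.49, and no count of called genes moved. Other reversals came from leaving out 1 goat: STAR in macrophage-like nuclei ran from -0.94 to 1.18 (1.18 without Du'an goat 1, 0.07 without Nubian goat 2), CYP17A1 over all nuclei from -0.93 to 2.31 (2.31 without Du'an goat 2, 0.07 without Nubian goat 1), HSD17B1 in cumulus GC-like nuclei from -0.81 to 0.41 and HSD17B1 over all nuclei from -0.26 to 0.033 (both highest without Du'an goat 1). None of these passed the threshold. Theca-like values rest on 366 nuclei and 122 CYP17A1 or 23 STAR UMIs in all.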

Other observations

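CYP11A1 was also counted in an unnamed cluster of 94, 489, 975 and 875 nuclei, led by OVN, IGF2 and TAGLN, with 4 of 7 epithelial markers raised. Its median depth was only 822 UMIs. It also held 9.14 to 1718 CPM of CYP19A1 and 36.8 to 70.5 CPM of HSD17B1. The part of free RNA in its levels was not tested. Its CYP11A1 level was 73.1, 155, 109 and 82.1 CPM in Du'an goats 1 and 2 and Nubian goats 1 and 2, a range that overlapped that of progenitor GC-like nuclei. Its 15 CYP17A1 UMIs reached 13.2 CPM in 1 goat, below the theca-like level in each goat.

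Within progenitor GC-like nuclei CYP11A1 was not limited to 1 goat or cluster. A cluster of 163 nuclei with LGR5, PDGFRA and WNT5B among its leading genes held 214, 166, 162 and 107 CPM. The main progenitor cluster of 1910 nuclei, led by MUSK and RUNX2, held 81.5, 123, 37.4 and 106 CPM.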
